A study of Mus musculus with 16 samples.

Results

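The transcripts described here are 36 interferon-stimulated genes in mouse liver. They were chosen by name, as genes that respond to type I or type II interferon, with earlier results of these data known. All 36 symbols matched 1 row each among the 54752 genes of the count table, and all 36 passed the filter on low counts. RNA was sequenced from snap-frozen liver of 16 male mice, F1 hybrids of C57BL6J and FVBN, aged 11 weeks. All 16 animals, controls included, carried the Ercc1Δ/− genotype: one allele of Ercc1, which encodes a subunit of a DNA repair endonuclease, is truncated and the other is null, and such mice age prematurely. Every mouse was raised on AIN93G pellets, and from 8 weeks of age 4 animals stayed on them as controls. The other 3 groups of 4 ate freely of an altered diet: high protein and low carbohydrate (protein at 194% and carbohydrate at 70% of the reference), low protein and high carbohydrate (70% and 112%), or low fat and high carbohydrate (fat at 70% and carbohydrate at 112%). No mouse with intact Ercc1 was analysed here, so the values compare diets within a repair-deficient background. The groups are called high protein, low protein and low fat below, and libraries are named by diet and replicate number.

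Interferons are secreted alarm proteins made when cells sense viral or misplaced cellular nucleic acid. Type I interferons bind a receptor whose kinases activate a complex that includes Stat2 and Irf9 and binds the interferon-stimulated response element (ISRE). Type II interferon, made mainly by T and NK cells, acts through the gamma-activated site (GAS). The induced genes encode nucleic acid sensors, antiviral enzymes, GTPases that attack the vacuoles of intracellular parasites, and brakes on the signal itself. In liver they are made by hepatocytes as well as by resident macrophages and endothelial cells, and a low tonic level is present without infection.

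The response elements are written in the DNA just upstream of many of these genes, and a few examples are shown to make the shared letters visible. RefSeq sequence (GRCm38.p6) was matched by symbol for 27 of the 36 genes, which have 32 annotated start sites between them, and the 250 bases upstream of each start were searched on both strands. The ISRE core was searched as GAAA, any 2 bases and GAAA again (TTTC, any 2 bases and TTTC on the other strand), and the GAS as TTCNNNGAA, a pattern that is its own reverse complement. Matches may overlap one another, and distances run from the first matched base to the start site. Capitals mark the matched letters, and each sequence runs 5′ to 3′ towards the start of transcription on the strand named.
Isg15 (chr4:156200819-156201068, minus strand): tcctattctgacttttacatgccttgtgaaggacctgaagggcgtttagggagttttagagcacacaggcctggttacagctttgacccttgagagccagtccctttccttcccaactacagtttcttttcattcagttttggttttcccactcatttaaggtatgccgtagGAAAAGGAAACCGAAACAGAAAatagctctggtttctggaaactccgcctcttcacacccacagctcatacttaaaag
Ifit3 (chr19:34583279-34583528, plus strand): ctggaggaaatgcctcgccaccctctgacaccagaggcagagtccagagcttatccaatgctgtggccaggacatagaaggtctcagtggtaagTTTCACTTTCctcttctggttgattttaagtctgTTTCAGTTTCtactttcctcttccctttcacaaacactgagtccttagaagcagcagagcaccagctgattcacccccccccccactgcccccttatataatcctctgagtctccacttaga
Ifit3b (chr19:34607707-34607956, plus strand): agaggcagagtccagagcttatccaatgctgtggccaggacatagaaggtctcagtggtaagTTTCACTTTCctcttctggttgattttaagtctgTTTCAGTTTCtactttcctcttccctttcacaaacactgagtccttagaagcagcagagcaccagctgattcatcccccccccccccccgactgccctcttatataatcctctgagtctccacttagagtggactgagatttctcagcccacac
Igtp (chr11:58199306-58199555, plus strand): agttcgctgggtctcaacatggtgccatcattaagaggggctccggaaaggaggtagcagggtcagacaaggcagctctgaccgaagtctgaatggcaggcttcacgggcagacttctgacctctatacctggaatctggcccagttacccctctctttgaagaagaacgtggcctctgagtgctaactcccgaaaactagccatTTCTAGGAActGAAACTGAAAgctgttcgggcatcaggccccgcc
Gbp7 (chr3:142530086-142530335, plus strand): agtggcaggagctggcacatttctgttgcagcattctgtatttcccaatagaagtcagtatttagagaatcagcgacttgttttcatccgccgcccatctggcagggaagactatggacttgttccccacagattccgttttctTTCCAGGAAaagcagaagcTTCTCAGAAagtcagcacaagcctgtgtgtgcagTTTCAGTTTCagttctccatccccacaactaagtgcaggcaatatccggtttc
Irf1 (chr11:53769764-53770013, plus strand): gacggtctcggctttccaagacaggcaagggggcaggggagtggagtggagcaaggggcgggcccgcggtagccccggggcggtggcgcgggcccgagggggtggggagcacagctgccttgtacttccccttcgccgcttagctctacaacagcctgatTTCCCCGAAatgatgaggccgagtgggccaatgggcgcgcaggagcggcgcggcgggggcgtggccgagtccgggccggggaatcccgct
Rsad2 (chr12:26456453-26456702, minus strand): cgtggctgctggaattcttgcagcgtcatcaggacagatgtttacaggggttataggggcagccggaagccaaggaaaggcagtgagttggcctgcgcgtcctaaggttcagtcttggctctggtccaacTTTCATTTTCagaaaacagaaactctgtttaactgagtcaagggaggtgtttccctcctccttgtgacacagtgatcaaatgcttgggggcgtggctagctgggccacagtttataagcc
In Isg15, 3 overlapping ISRE matches begin 78, 72 and 66 bases before the start site. Ifit3 and Ifit3b, neighbouring copies on chromosome 19, each carry a pair of ISRE matches 34 bases apart, and over 218 bases lined up without gaps their upstream DNA was identical at 188 positions (86.2%). Igtp and Gbp7, both GTPases that respond strongly to type II interferon, hold both elements. Irf1 holds a GAS match only, at 90 bases, and Rsad2 a single ISRE match at 120 bases.

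An ISRE match was present in 15 of the 32 windows of these genes (46.9%), against 2.98% of all 32851 windows of the same length in the RefSeq table. A GAS match was present in 6 of 32 (18.8%) against 7.02% of all windows. Counted by gene, 15 of 27 had an ISRE match, 8 of them more than 1, 6 had a GAS match and 10 had neither. The nearest ISRE match lay 14 to 222 bases upstream, with a median of 66. The genes were chosen as interferon targets, so these shares describe the list. Irf7, Irf9 and Ifih1 were among those with no match, which says only that these letters are not in this window.

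The libraries held 35243594 to 112789127 counts assigned to genes, with low-fat 2 the deepest. Levels are given as CPM, counts scaled to a common library size with TMM factors, and as RPKM (per kilobase of exon as well) where genes are compared with each other. The hepatocyte markers, among them Alb and Apoa1, summed to 66334 to 120399 CPM, so the tissue label and the RNA agreed. Kidney markers were also present, at a summed 0.255 CPM in high-protein 1 and 3273 CPM in control 3. 2 control libraries stood apart over all tested genes. Each library's deviations were taken from the mean of the other libraries of its diet. Their SD was 1.29 log2 units in control 4 and 1.01 in control 3, against 0.433 to 0.835 in the other 14. Shared litters or cages are not given in the labels, so each p-value covers only the spread among these animals.

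Every one of the 36 genes was transcribed in these livers, over a wide range of levels. Averaged over the 16 libraries, 6 genes were at 10 RPKM or more, 25 between 1 and 10 and 5 below 1. The highest was Bst2, the membrane tether that holds budding virus particles, at 149 ± 33.8 RPKM (SD, n = 16). It was followed by Ifi27, a small membrane protein, at 64.4 ± 13.6, and Igtp at 19.3 ± 8.06. Irf7, Isg15 and Stat2 came next at 11.2, 10.9 and 10.5 RPKM, differences smaller than the SD of each. The lowest were Mx1, a dynamin-like GTPase, at 0.468 ± 0.165 RPKM and Oas3 at 0.144 ± 0.0898. The level of a gene differed between its highest and lowest library by a median of 4.85-fold, and by 2.49-fold when control 4 was left out.

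The largest pattern in these genes lay between single mice. Control 4 was the lowest of all 16 libraries for 32 of the 36 genes, while it was lowest for 26.5% of all 17833 tested genes. Against the mean of the other 3 controls it was lower in 34 of 36, by a median of -1.40 log2 units, whereas over all tested genes the median was -0.02 and 51.3% were lower. 27 of the 36 were more than 1 log2 unit lower, compared with 10.7% of all genes. Igtp was at 2.61 CPM in control 4 and at 46.5, 37.2 and 30.4 CPM in controls 1 to 3, a difference of -3.61 log2 units. Isg15, the ubiquitin-like modifier, was at 0.952 CPM there and at 8.80, 5.55 and 7.88 CPM in the others. Zbp1, Gbp6, Samd9l and Ifit1 were each more than 2.4 log2 units lower, at -2.72, -2.66, -2.46 and -2.44.

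The exceptions were Usp18 and Rsad2. Usp18, the protease that removes Isg15 from proteins and blocks the type I receptor, was at 39.2 CPM in control 4, its highest value in any of the 16 libraries. Rsad2 was at 12.5 CPM there, above the other controls at 10.8, 6.22 and 8.50. Oasl1 was at 8.84 CPM, within the range of the other controls. Control 4 was also the highest of the 16 libraries for 29.1% of all tested genes, so a top value there is common. It combined low levels of most of the 36 genes with a high Usp18 level, and a link between these was not tested.

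Low-fat 2 stood at the other end. It was the highest of the 16 libraries for 26 of the 36 genes (5.29% of all tested genes) and lay above the mean of the other 3 low-fat libraries in 35 of 36, by a median of 0.53 log2 units. Samd9l was the exception, at -0.11. Igtp was at 84.3 CPM in low-fat 2 and at 36.4, 38.9 and 50.1 CPM in low-fat 1, 3 and 4. Gbp2 was at 16.2 CPM against 8.37, 8.38 and 7.62 CPM, and Oas3 at 3.12 CPM against 1.56, 1.05 and 1.01.

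**Figure D1:**
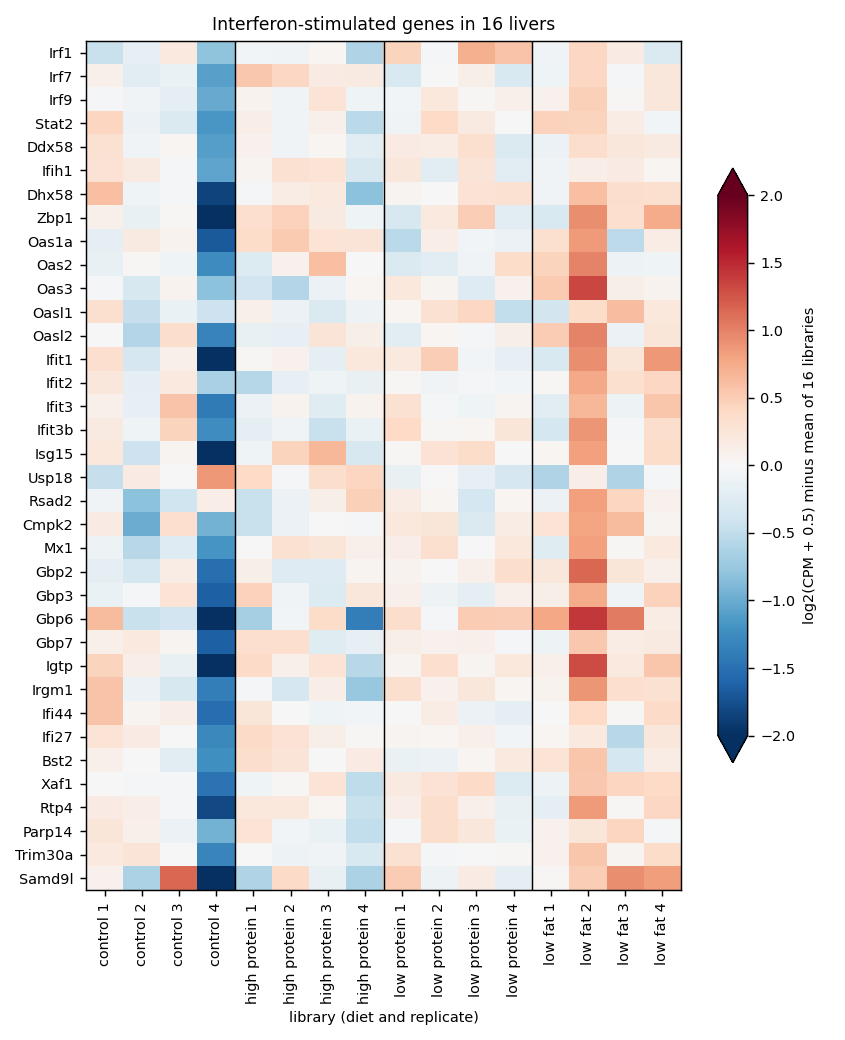
Each of the 36 genes (rows) in each of the 16 libraries (columns), as log2(CPM + 0.5) minus that gene's mean over the 16 libraries, with the scale ending at 2 log2 units either way. Control 4 is blue in most rows and low-fat 2 is red in most, while the 4 low-protein columns are pale.

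Summarised as the median deviation of the 36 genes from their 16-library mean, control 4 was at -1.48 log2 units and low-fat 2 at 0.73. The other 14 libraries fell between -0.11 and 0.23. The 4 low-protein mice were closest to each other, at 0.10, 0.07, 0.09 and 0.03. The high-protein mice were at 0.05, 0.00, 0.07 and -0.09, and controls 1 to 3 at 0.16, -0.11 and -0.01. Low-fat 1, at 0.04, lay among these, and low-fat 3 and 4, at 0.159 and 0.228, lay above them, low-fat 3 by little over control 1 at 0.155.

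**Figure D2:**
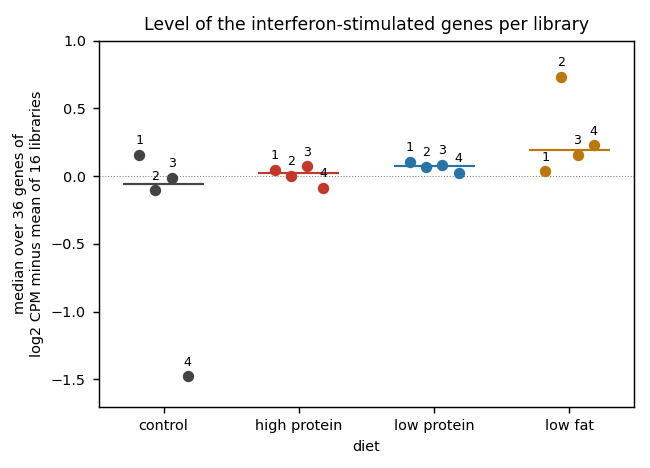
Median over the 36 genes of the log2 CPM deviation from the 16-library mean, 1 point per library with its replicate number, by diet; short lines are the diet medians. Control 4 lies at -1.48 and low-fat 2 at 0.73, and the other 14 libraries lie between -0.11 and 0.23.

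Some immune cell markers were lowest and highest in the same libraries, and others were not. T and NK cell markers (12 of 12 matched, none at 0 in every library) summed to 2.73 CPM in control 4, the lowest of the 16, and to 12.7 CPM in low-fat 2, the highest. Their range was 2.73 to 6.17 CPM in control, 6.04 to 8.25 in high protein, 5.91 to 10.4 in low protein and 7.98 to 12.7 in low fat. Kupffer cell markers (11 matched) ran from 225 to 264 CPM in control, 228 to 315 in high protein, 230 to 356 in low protein and 257 to 414 in low fat, with low-fat 2 highest. Control 4 was at 227 CPM, within the range of the other controls. Markers of recruited macrophages and neutrophils (10 matched) summed to 24.8 CPM in control 4, the lowest of the 16, and to 58.8 CPM in low-fat 2, the highest. Their range was 24.8 to 42.8 CPM in control, 39.7 to 51.0 in high protein, 40.2 to 51.6 in low protein and 41.7 to 58.8 in low fat. B cell markers (8 matched) did not follow these libraries: they were at 7.37 CPM in control 4 and 11.6 in low-fat 2, with control at 7.01 to 9.40, high protein at 5.38 to 7.20, low protein at 6.77 to 13.5 and low fat at 9.78 to 24.9. All 8 B cell markers were lower on high protein than on low fat, at a median of -1.44 log2 units, 7 of them at an unadjusted p under 0.05 (4.41% of all genes) and none at an adjusted one. Plasmacytoid dendritic cell markers (7 matched) were at 39.0 CPM in control 4, above controls 1 and 2 (27.1 and 26.7) and below control 3 (180). They were at 78.5 CPM in low-fat 2, below low-fat 3 and 4 (141 and 127). Their highest and lowest sums, in control 3 and high-protein 1 (20.6 CPM), were in the libraries with the highest and lowest kidney marker sums (3273 and 0.255 CPM). A kidney part in these sums was not tested. Control 4 was the highest of the 16 for 29.1% of all tested genes. In it, the sinusoidal endothelial and stellate cell markers were at 289 and 490 CPM, the highest of the 16, and hepatocyte markers at 120399 CPM, also the highest. The part these cells had in the levels of the 36 genes was not tested, and in bulk tissue fewer cells of a type and less RNA per cell cannot be told apart.

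None of the 36 genes passed an adjusted p of 0.05 in any of the 6 comparisons between diets or in the joint test of the 4 diets (edgeR quasi-likelihood test, Benjamini-Hochberg adjustment over 17833 genes). The same test called 0% of all genes in each of the 6 comparisons and in the joint test, where the smallest adjusted p was 0.630 and 1175 genes (6.59%) had an unadjusted p under 0.05. DESeq2 called 79 genes in the joint test and none of them was among the 36. The values below therefore describe direction and size, and no gene is reported as changed.

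On high protein, 30 of the 36 genes were above control, at a median of 0.20 log2 units and a range from -0.25 to 0.85, while 41.7% of all tested genes were above control at a median of -0.06. An unadjusted p under 0.05 with a higher level was reached by 2, Irf7 and Mx1, against 2.48% of all genes, and none with a lower level (3.74%). The 4 libraries of each diet did not overlap for 3 genes, Irf7, Oas1a and Mx1, all higher on high protein, against 1.12% of all genes, and for none in the lower direction (0.841%). The smallest adjusted p among the 36 was 0.762. Without control 4 the count above control was 14 of 36 and the median -0.04, so the direction of the group as a whole rested on that library.

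On low protein, 34 of 36 were above control, at a median of 0.27 log2 units (range -0.39 to 0.85), against 45.6% of all genes and a median of -0.03. Irf1 and Mx1 had an unadjusted p under 0.05 and were higher, against 2.35% of all genes, and none was lower (4.73%). Mx1 alone had libraries that did not overlap and were higher, against 1.61% of all genes, and none was lower without overlap (0.869%), and the smallest adjusted p was 0.682. Without control 4, 19 of 36 were above control and the median was 0.02.

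On low fat, 35 of 36 were above control, at a median of 0.54 log2 units (range -0.47 to 1.27), against 47.6% of all genes and a median of -0.02. 11 genes reached an unadjusted p under 0.05, all higher on low fat, against 3.09% of all genes (6.13% were lower): Irf9, Oas2, Oas3, Oasl2, Ifit2, Rsad2, Cmpk2, Mx1, Gbp2, Gbp6 and Xaf1. Irf9 and Oas3 had libraries that did not overlap and were higher (1.27% of all genes), and none was lower without overlap (1.32%). The smallest adjusted p was 0.530. Without control 4, 32 of 36 were above control at a median of 0.26, and 6 were higher at an unadjusted p under 0.05. The 11 were 7 with the kidney marker level as a covariate and 1 when only the low-fat and control libraries were fitted. Without low-fat 2, 35 of 36 were above control at a median of 0.37 and none was higher at an unadjusted p under 0.05. The 1 gene under 0.05 in that fit was Usp18, which was lower, at -0.60. All tested genes under 0.05, in either direction, also fell in number, from 1644 to 1008, 1222, 609 and 996 in these fits, in order. With both left out, 27 of 36 were above control at a median of 0.14. The 3 comparisons share the same control mice, so their common direction is not independent.

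**Figure D3:**
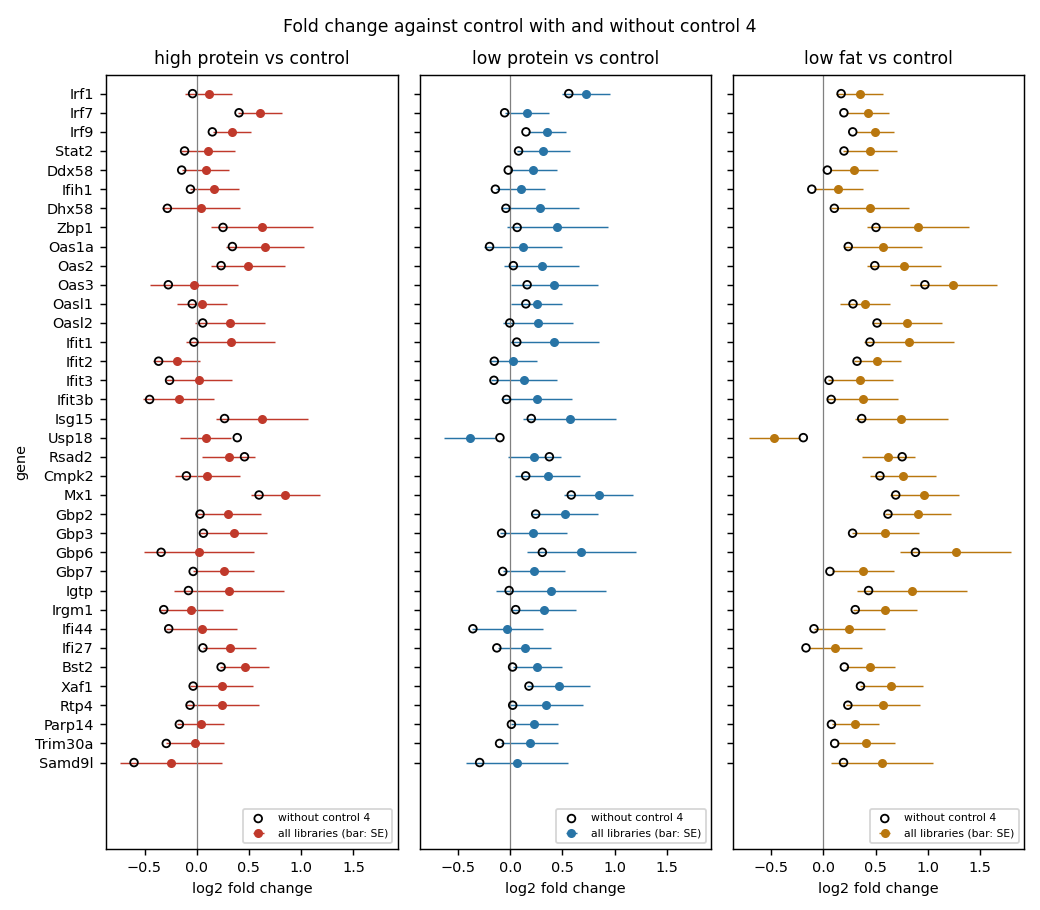
Log2 fold change against control of each of the 36 genes for the 3 altered diets. Filled points use all libraries, with the standard error as a bar, and open circles leave out control 4; the filled medians are 0.20, 0.27 and 0.54 and the open ones -0.04, 0.02 and 0.26.

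Among the altered diets themselves, where control 4 plays no part in the group means, low fat had the higher levels. High protein was below low fat in 30 of 36 genes, at a median of -0.32 log2 units, while 47% of all genes were above. Oas3, Ifit2 and Gbp6 were lower on high protein at an unadjusted p under 0.05 (4.41% of all genes), and Usp18 was higher (4.67%). With only these 2 diets fitted, 8 of the 36 were lower and 1 higher, and without low-fat 2, 1 was lower and 1 higher. All tested genes under 0.05, in either direction, numbered 1620 with all libraries and 2836 and 1168 in these fits. The libraries of Oas3, Ifit2, Cmpk2 and Trim30a did not overlap, all lower on high protein, against 3.99% of all genes, and none was higher without overlap (4.23%). The smallest adjusted p was 0.429, for Ifit2. Without low-fat 2, 10 of 36 were above low fat and the median was -0.16.

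Low fat was above low protein in 33 of 36 genes at a median of 0.22, against 50.4% of all genes, and in 30 of 36 at 0.10 without low-fat 2. Ifit2 alone had an unadjusted p under 0.05 (1.01% of all genes were higher and 1.37% lower) and libraries that did not overlap (2.35% were higher and 2.14% lower). With only these 2 diets fitted, 5 of the 36 were higher under 0.05 and none lower, and without low-fat 2 none was either. All tested genes under 0.05, in either direction, numbered 425 with all libraries and 1681 and 301 in these fits. High protein was above low protein in 15 of 36 at a median of -0.10, against 47.5% of all genes. Irf1 was lower on high protein at an unadjusted p under 0.05 (2.83% of all genes), and none was higher (2.34%). With only the 2 protein diets fitted, 2 of the 36 were lower and 3 higher. All tested genes under 0.05, in either direction, then rose from 922 to 2034. Irf7 and Oas1a lay above low protein without overlap (3.15%), and Ifit2 and Ifit3b below it without overlap (3.47%).

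The transcription factors of the response were all above control on every altered diet with all libraries, and in 2 of 4 on high protein, 3 of 4 on low protein and 4 of 4 on low fat without control 4. Irf7 (ENSMUSG00000025498.15, chr7:141262706-141266481, minus strand in GRCm38), the factor that amplifies type I interferon production, was at 44.0, 35.2, 37.1 and 19.0 CPM in controls 1 to 4 and at 59.4, 54.6, 45.8 and 46.4 CPM on high protein. It was at 33.0, 41.3, 44.2 and 32.9 CPM on low protein and at 38.4, 54.9, 40.2 and 47.9 CPM on low fat. All 4 high-protein mice were above all 4 controls and above all 4 low-protein mice. High protein against control had a log2 fold change of 0.61 ± 0.21 (SE, adjusted p = 0.762), and 0.40 without control 4. That of high protein against low protein was 0.45 ± 0.21 (adjusted p = 0.960, edgeR).

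Irf1 (chr11:53770014-53778374, plus strand), which acts mainly downstream of type II interferon, took the opposite course between the protein diets. It was at 35.1, 25.5, 42.7 and 38.5 CPM on low protein and at 24.8, 24.6, 26.5 and 16.8 CPM on high protein. Controls were at 18.8, 22.8, 29.6 and 14.5 CPM, and low-fat mice at 24.6, 34.3, 28.9 and 21.0. The low-protein libraries were mostly above the rest, with low-protein 2 inside the range of the other groups. Low protein against control had a log2 fold change of 0.73 ± 0.23 (SE, adjusted p = 0.682, edgeR), and 0.56 without control 4.

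Irf9, the DNA-binding part of the complex with Stat2, was at 33.5, 32.8, 30.3 and 16.9 CPM in control and at 36.4, 48.1, 34.99 and 40.2 CPM on low fat. All 4 low-fat libraries were above all 4 controls, including the 3 that lay close together. The log2 fold change was 0.49 ± 0.18 (SE, adjusted p = 0.530, edgeR), and 0.28 without control 4. Stat2, its partner, was at 81.3, 55.4, 49.2 and 26.7 CPM in control and 82.8, 82.5, 66.8 and 57.9 on low fat. Control 1 was level with the highest low-fat libraries, and the log2 fold change of 0.45 ± 0.26 was 0.20 without control 4.

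The 4 cytosolic sensors had median log2 fold changes against control of 0.13 on high protein, 0.26 on low protein and 0.37 on low fat, and of -0.10, -0.03 and 0.07 without control 4. Ddx58 (RIG-I) and Ifih1 (MDA5), which detect viral RNA, were within 0.29 log2 units of control on every altered diet. Ddx58 ranged from 12.6 to 34.4 CPM in control, 23.9 to 29.5 on high protein, 22.6 to 34.5 on low protein and 25.4 to 35.5 on low fat, and Ifih1 from 18.5 to 47.8, 31.1 to 48.3, 33.4 to 46.6 and 37.2 to 44.0. In both, control 4 set the lower end, and the 4 diets overlapped. Dhx58 (LGP2), which modulates both, was at 10.7 ± 6.16 CPM (SD, n = 4) in control, 11.0 ± 3.20 on high protein, 13.2 ± 1.43 on low protein and 14.7 ± 2.79 on low fat. Zbp1, a sensor of Z-form nucleic acid that can trigger necroptosis, had the widest range of the 4. It was at 7.40, 6.16, 6.99 and 0.614 CPM in control, at 8.84, 9.69, 7.82 and 6.42 on high protein, at 5.39, 7.93, 9.83 and 5.89 on low protein, and at 5.50, 13.5, 8.85 and 11.8 on low fat. Its values overlapped between every pair of diets, and the low-fat log2 fold change was 0.90 ± 0.49 (SE, adjusted p = 0.568, edgeR), or 0.50 without control 4.

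The oligoadenylate synthetases make the messenger that activates RNase L, and they share sequence, so reads may be divided between them. The median of the 5 genes against control was 0.32 log2 units on high protein, 0.27 on low protein and 0.77 on low fat (0.06, 0.03 and 0.49 without control 4). Oas3 (chr5:120753098-120777661, minus strand) was the lowest-level gene of the 36. It was at 0.900, 0.644, 0.996 and 0.307 CPM in control, 0.595, 0.450, 0.812 and 0.971 on high protein, 1.15, 0.992, 0.700 and 1.01 on low protein and 1.56, 3.12, 1.05 and 1.01 on low fat. The 4 low-fat libraries were above all controls and all high-protein libraries, low-fat 3 and 4 only narrowly. Against control this was a log2 fold change of 1.24 ± 0.42 (SE, adjusted p = 0.530, edgeR), 0.97 without control 4 and 0.73 without low-fat 2.

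Oas1a, like Irf7, separated high protein from control and from low protein. It was at 6.65, 7.52, 6.20 and 6.12 CPM on high protein, above all controls (4.41, 5.83, 5.36 and 1.23) and all low-protein libraries (3.323, 5.58, 4.84 and 4.63). Low-fat mice spanned 3.38 to 9.52 CPM, across both. The log2 fold change of high protein against control was 0.65 ± 0.37 (SE, adjusted p = 0.762, edgeR), and 0.34 without control 4. Oas2 was at 2.87, 3.31, 3.03 and 1.07 CPM in control and 4.61, 6.93, 2.98 and 3.04 on low fat, and Oasl2 at 4.44, 2.80, 5.87 and 1.47 and at 6.60, 9.38, 4.07 and 5.40. For both, low-fat 1 and 2 were above all controls and low-fat 3 and 4 were not. Their low-fat log2 fold changes of 0.77 ± 0.35 and 0.80 ± 0.34 (SE, adjusted p = 0.534 and 0.530, edgeR) were 0.49 and 0.51 without control 4. Oasl1, which lacks the synthetase activity and restrains Irf7 translation, was the least variable of the 5 between its highest and lowest library, at 2.21-fold.

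The IFIT proteins bind viral RNA that lacks host cap marks. Ifit2 (chr19:34550694-34576419, plus strand) separated low fat from the protein diets. It was at 4.46, 7.71, 5.59 and 5.98 CPM on low fat, at 4.42, 4.14, 4.25 and 4.17 CPM on low protein and at 2.76, 3.84, 4.06 and 3.89 CPM on high protein. The 3 groups did not overlap, although low-fat 1 was close to low-protein 1. Controls, at 5.17, 3.73, 5.08 and 2.61 CPM, overlapped with all of them. The log2 fold change of high protein against low fat was -0.71 ± 0.23 (SE, adjusted p = 0.429, edgeR), and -0.56 without low-fat 2.

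Ifit3 and Ifit3b, whose upstream DNA is shown above, are near copies whose reads may be shared in the counting. Ifit3 was at 15.6, 12.9, 21.7 and 5.16 CPM in control and 12.4, 23.4, 13.6 and 21.5 on low fat, while Ifit3b was at 5.14, 4.15, 6.24 and 1.596 and at 3.36, 8.67, 4.35 and 5.82. The order of the 4 control libraries was the same for both, and low-fat 2 and 4 were highest for both. Ifit1, the most studied of the family, was at 15.2, 9.33, 12.8 and 1.84 CPM in control and 9.54, 23.1, 14.3 and 22.3 on low fat, with low-fat 1 below controls 1 and 3. All 4 IFIT genes were below control on high protein when control 4 was left out, at a median of -0.31 log2 units, compared with -0.08 when it was kept.

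Isg15 (chr4:156199424-156200818, minus strand) and Usp18 (chr6:121245906-121270917, plus strand) are the modifier and the protease that removes it from proteins, and their levels differed in direction on low fat. Isg15 was at 7.12, 10.4, 12.3 and 5.96 CPM on high protein, 7.67, 9.39, 9.87 and 7.56 on low protein and 7.80, 13.7, 7.59 and 9.90 on low fat. Each range overlapped with controls 1 to 3, and the log2 fold changes against control of 0.62, 0.57 and 0.75 were 0.27, 0.20 and 0.37 without control 4. Usp18 was at 15.3, 23.8, 21.0 and 39.2 CPM in control, 28.3, 20.9, 27.4 and 28.9 on high protein, 19.1, 21.1, 19.0 and 16.8 on low protein and 13.8, 23.2, 13.8 and 20.9 on low fat. It was the only one of the 36 below control on low fat, at -0.47 ± 0.24 log2 units (SE, adjusted p = 0.560, edgeR), at -0.19 without control 4 and at -0.60 without low-fat 2. High protein was above low fat by 0.56 ± 0.24 (adjusted p = 0.534), with low-fat 2 inside the high-protein range. Against control, high protein was at 0.09, and at 0.39 without control 4.

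Rsad2 (viperin), which makes a chain-terminating nucleotide, and Cmpk2, the neighbouring kinase on chromosome 12 that feeds it, were above control on all 3 diets with all libraries. Rsad2 was at 10.5, 20.5, 15.5 and 12.1 CPM on low fat, 8.23, 10.4, 12.4 and 16.0 on high protein and 12.6, 11.7, 8.79 and 11.6 on low protein. The low-fat log2 fold change against control was 0.62 ± 0.26 (SE, adjusted p = 0.530, edgeR), and 0.75 without control 4, since that library was the highest control. Cmpk2 was at 6.23, 9.17, 8.15 and 5.32 CPM on low fat, above all high-protein libraries (3.61, 4.66, 5.06 and 4.94), and controls at 5.75, 2.30, 6.54 and 2.39 overlapped with both.

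Mx1 (ENSMUSG00000000386.15, chr16:97447035-97462907, minus strand) is a dynamin-like GTPase, and its RNA had similar levels on the 3 altered diets. Whether these mice make an active Mx1 protein cannot be told from RNA levels. It was at 1.54, 0.981, 1.33 and 0.460 CPM in control and at 1.70, 2.20, 2.08 and 1.83 CPM on high protein. On low protein it was at 1.88, 2.23, 1.67 and 2.03 CPM, and on low fat at 1.36, 3.34, 1.72 and 2.01. High-protein and low-protein libraries were all above the controls, and low-fat 1 was inside the control range. The log2 fold changes were 0.85 ± 0.33 (SE), 0.85 ± 0.33 and 0.97 ± 0.33, with adjusted p of 0.762, 0.682 and 0.530 (edgeR). Without control 4 they were 0.60, 0.59 and 0.69.

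Gbp6 (chr5:105270702-105293698, minus strand), a guanylate-binding protein, had the largest low-fat difference of the 36 with all libraries, just above Oas3. It was at 20.6, 9.56, 10.0 and 1.57 CPM in control, 8.08, 12.7, 17.0 and 4.72 on high protein, 16.8, 12.7, 18.9 and 18.7 on low protein and 22.7, 35.7, 27.6 and 14.6 on low fat. 3 of 4 low-fat libraries were above all controls, and low-fat 4 was below control 1. Low fat against control had a log2 fold change of 1.27 ± 0.53 (SE, adjusted p = 0.530, edgeR), 0.88 without control 4 and 1.03 without low-fat 2. It belongs to a family of close copies, so its counts depend on how reads matching several copies were handled.

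The other guanylate-binding proteins were closer to control. Gbp2 was at 6.13, 5.44, 7.88 and 2.15 CPM in control, and only low-fat 4 (7.62 CPM) was not above all 4 of these. Its low-fat log2 fold change was 0.91 ± 0.32 (SE, adjusted p = 0.530, edgeR), 0.62 without control 4 and 0.57 without low-fat 2. Gbp3 ranged from 2.98 to 12.5 CPM in control and 9.71 to 17.5 on low fat, and Gbp7 from 6.60 to 24.7 and 19.9 to 31.5. Control 4 was the lowest of all libraries for both. Igtp and Irgm1, which act on the membranes around intracellular parasites, had low-fat log2 fold changes of 0.85 ± 0.53 and 0.59 ± 0.31, and 0.43 and 0.31 without control 4.

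**Figure D4:**
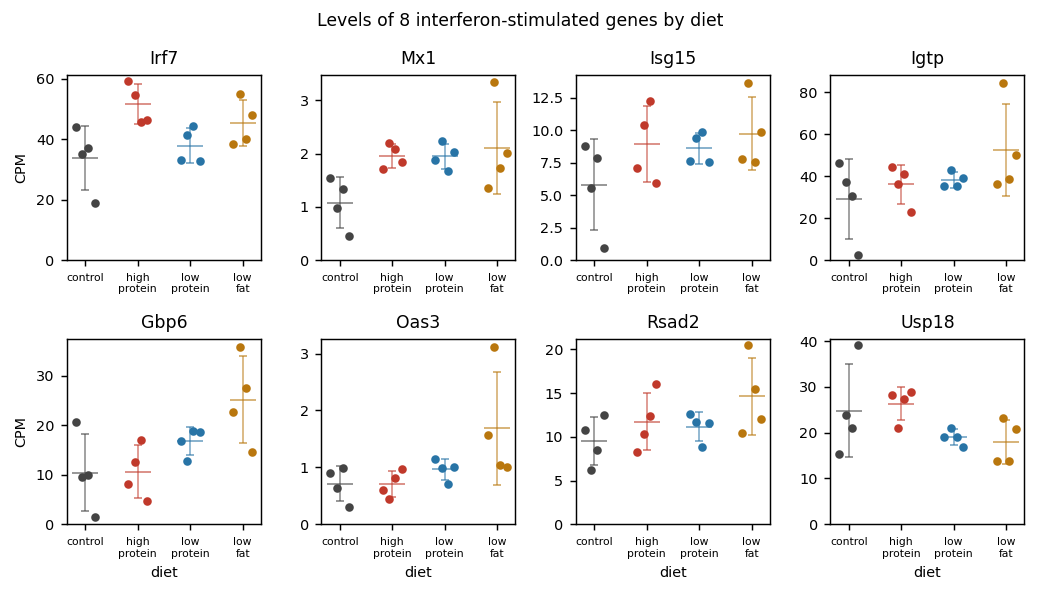
CPM of 8 genes by diet, 1 point per library in replicate order from left to right, with a bar for the mean and SD of the 4 libraries. The high-protein points of Irf7 lie above all control points, control 4 is the lowest point for Mx1, Isg15, Igtp and Gbp6, and it is the highest point for Usp18 at 39.2 CPM.

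The other 8 effectors had a low-fat median of 0.43 log2 units against control, and of 0.15 without control 4. Xaf1, a pro-apoptotic protein, was at 7.66, 7.43, 7.44 and 2.42 CPM in control and 7.07, 11.4, 10.5 and 10.2 on low fat. 3 of the 4 low-fat libraries were above every control. Its log2 fold change was 0.65 ± 0.30 (SE, adjusted p = 0.534, edgeR), and 0.36 without control 4. Ifi44 and the ubiquitin ligase Trim30a differed from control by 0.25 ± 0.34 and 0.41 ± 0.28 log2 units on low fat, and by -0.09 and 0.11 without control 4. Rtp4, a receptor transporter protein, was at 11.0, 10.7, 9.47 and 2.46 CPM in control and 8.63, 18.0, 9.94 and 13.3 on low fat, and Parp14, an ADP-ribosyltransferase, at 42.4, 38.5, 32.9 and 18.3 and at 37.9, 42.1, 48.5 and 34.8. In both genes low fat overlapped with controls 1 to 3. Ifi27 was at 111, 103, 90.7 and 37.2 CPM in control and lowest of the altered diets in low-fat 3, at 62.6 CPM. Bst2 was at 109 ± 37.4 CPM (SD, n = 4) in control, 149 ± 15.9 on high protein, 130 ± 14.4 on low protein and 148 ± 36.5 on low fat. Samd9l, an antiviral and growth-restraining protein, was the most scattered of the 8 within control, at 24.0, 14.4, 50.4 and 4.30 CPM.

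Upstream of these genes, the interferons themselves were at the limit of detection. Of 17 type I, II and III interferon genes matched, 13 had 0 counts in every library. The other 4 were Ifnk with 38 counts over the 16 libraries, Ifnz with 14, Ifng with 6 and Ifna13 with 1, and none passed the filter on low counts. A count of 0 allows up to 3 counts, or 0.0921 CPM in the library with the smallest TMM-scaled size and 0.0251 CPM in the largest, for counting error only. Differences between diets in the ligands were not detectable at this depth.

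Of 12 genes of the receptors and the signal relay, 9 were above control on high protein, 8 on low protein and 10 on low fat, at medians of 0.12, 0.15 and 0.22 log2 units, and none passed the test. Without control 4 the counts were 7, 8 and 11 and the medians 0.05, 0.10 and 0.17. Tyk2, a receptor kinase, was at 15.8 CPM in control 4 and 24.7 to 27.0 in the other controls. The type I receptor chains did not share this pattern: Ifnar1 was at 52.2 CPM in control 4, within 38.9 to 52.9 of the other controls, and Ifnar2 at 47.3 CPM was above their 22.6 to 28.3.

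The 11 tested negative regulators were the one list with more genes below than above control, 8, 6 and 6 of 11 in the order high protein, low protein and low fat, with medians of -0.28, -0.11 and -0.24. Without control 4 the medians were -0.03, 0.02 and 0.06. Control 4 was the highest library for 29.1% of all tested genes. There the list's median deviation was 0.69 log2 units, against -0.18 to 0.24 in the other 15 libraries. Sh2b3, an adaptor that damps cytokine receptor kinases, was at 72.7 CPM in control 4 and at 17.4, 26.3 and 29.4 in the others. Ptpn2, a phosphatase that damps the signal, was at 31.8 CPM against 11.2, 11.0 and 7.48. Cish, a cytokine-induced inhibitor better known for growth hormone signalling, did not follow control 4. It was at 60.2, 59.7, 38.0 and 34.1 CPM in control and 4.29, 13.0, 11.0 and 3.62 CPM on low protein, with no overlap, a log2 fold change of -2.58 ± 0.73 (SE, adjusted p = 0.682, edgeR). Ptpn6 went the other way from the list, above control on high protein, low protein and low fat. Its log2 fold changes were 0.17, 0.28 and 0.30 (adjusted p = 0.762, 0.682 and 0.530, edgeR).

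A further 55 interferon-stimulated genes outside the 36 were described in the same way. Of these, 43 were above control on high protein, 46 on low protein and 49 on low fat, at medians of 0.16, 0.23 and 0.42 log2 units. Without control 4 the counts were 25, 35 and 44 and the medians -0.02, 0.04 and 0.20. On low fat 12 had an unadjusted p under 0.05, all higher, against 3.09% of all genes (6.13% were lower). That count was 8 without control 4, 5 without low-fat 2 and 2 without both. All tested genes under 0.05, in either direction, numbered 1644 with all libraries and 1008, 996 and 600 in these fits. Helz2, a nuclear receptor coactivator with helicase domains, was at 101, 66.0, 69.5 and 59.6 CPM in control and 115, 140, 147 and 86.2 on low fat, a log2 fold change of 0.72 ± 0.20 (SE, adjusted p = 0.530, edgeR). Low-fat 4 was below control 1. Tgtp1, a T cell-specific GTPase with a near-identical neighbour, was at 8.39, 5.18, 7.76 and 6.35 CPM in control and 9.72, 17.6, 9.33 and 10.5 on low fat. All 4 low-fat libraries were above all controls for Tgtp1, and its log2 fold change of 0.77 ± 0.21 was 0.70 without control 4 and 0.51 without low-fat 2. For both genes control 4 was not apart from the other controls.

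The 16 tested nucleic acid sensors and adaptors were above control in 14, 12 and 12 genes, at medians of 0.09, 0.16 and 0.23. Without control 4, where 17 passed the filter, the counts were 12, 8 and 12 and the medians 0.05, -0.00244 and 0.13. Ikbke, a kinase that activates Irf3 and Irf7, was at 45.8, 36.9, 32.8 and 16.7 CPM in control and 48.8, 55.0, 41.2 and 43.2 on low fat. Of 18 tested genes of antigen presentation and the response to type II interferon, 14, 14 and 15 were above control, at medians of 0.10, 0.22 and 0.20, and without control 4 in 10, 13 and 12, at 0.02, 0.06 and 0.16. Cxcl9, a chemokine induced by type II interferon, was at 7.61, 5.86, 5.83 and 1.14 CPM in control and 15.0, 17.2, 9.06 and 5.61 on low fat, a log2 fold change of 1.196 ± 0.46 (SE, adjusted p = 0.530, edgeR). It was 0.84 without control 4. Low-fat 4 was below 3 of the controls, and the other low-fat libraries were above all of them. None of the genes in these 5 lists passed the adjusted threshold.

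**Figure D5:**
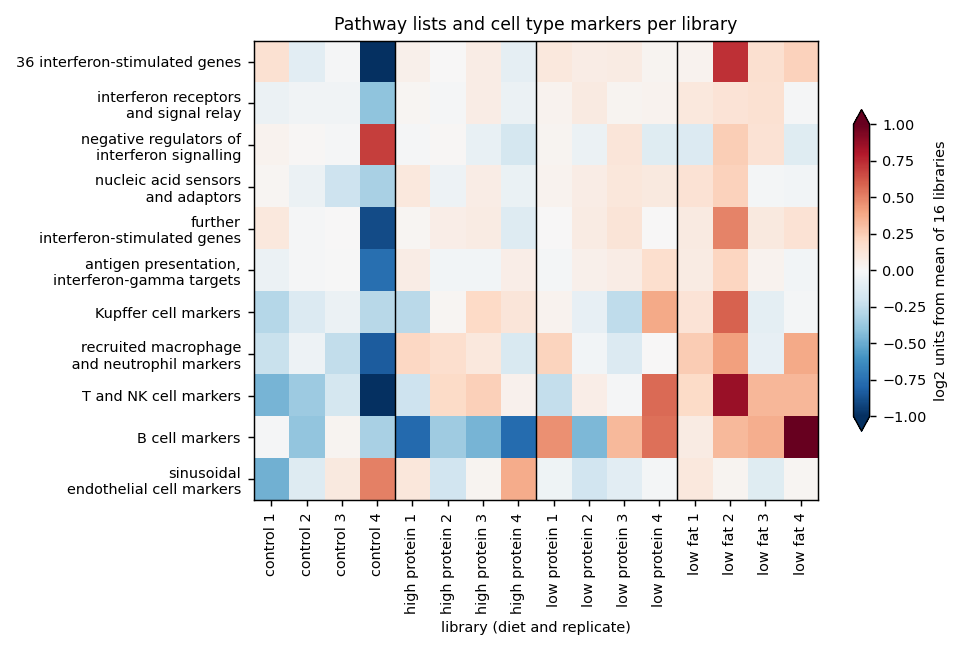
Level per library of the 36 genes, of 5 lists of related genes (median deviation of log2 CPM from the 16-library mean) and of 5 cell type marker lists (log2 of the summed CPM minus its mean over the 16 libraries), with the scale ending at 1 log2 unit either way. In control 4 the 36 genes, the further interferon-stimulated genes and the antigen presentation list (-0.75) are low, and the negative regulators are high at 0.69. The T and NK cell markers and those of recruited macrophages and neutrophils are also low there. In low-fat 2 the 36 genes, the further interferon-stimulated genes and the T and NK cell markers are high.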

How the data were processed

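Total liver RNA was made into directional libraries, per the labels' protocols. The file deposited by the authors gives raw counts of reads for each gene and library and the gene's exon length in bases. The tools named are STAR 2.7.0f, Trimmomatic 0.39, Subread 1.6.4, featureCounts and edgeR 3.32.1, on GRCm38.p6, per the submitters' processing notes. How strand was set and which annotation was used is not given in the sources used here, so a gene and its overlapping antisense partner cannot be told apart, and close copies (Ifit3 and Ifit3b, the Oas and Gbp families) are uncertain. Symbols came from GENCODE M21, which matched 53861 of 54752 identifiers, all at the same position.

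Here, genes passing filterByExpr (17833) were normalised by TMM and fitted with edgeR 4.0.16 in R 4.3.3 (quasi-likelihood, 4 diet means, 12 residual degrees of freedom). Tests of all 6 diet pairs and of the 4 diets jointly were two-sided, with Benjamini-Hochberg adjustment over all tested genes at 0.05. Depth was 35243594 to 112789127 counts per library. In data simulated for high protein against control over 17454 genes, 1 of 50 genes changed 1.5-fold was recovered, 25 of 50 at 2-fold, 43 of 50 at 4-fold and 48 of 50 at 8-fold, with 9 false calls.

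Groups were taken from the labels. The 36 genes, the other lists and the tests were chosen with earlier results of these data known. All 36 genes may be named; from each other list, the 2 genes with the smallest p against control per diet, and any receptor, relay or sensor gene. Ptpn2 and Sh2b3 fall under that rule. Alternatives were RLE and upper-quartile factors, 2 other filters, only the diets compared, the replicate number as a block, the kidney marker level as a covariate, limma-voom 3.58.1 with quality weights, DESeq2 1.42.0 and leaving out each library. Leaving out control 4 and low-fat 2 together was chosen after the data were seen. One gene of the relay list is not reported here.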

Additional observations from a re-analysis of the deposited data

Results flagged for a closer look

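Within each diet's 4 libraries, the highest and lowest value of each of the 36 genes and of their median level was compared with the gap to its neighbour, and 13 of 148 groups held a library far from the other 3. Chance flags about 1 in 20 such groups taken 1 at a time. These groups share the same mice and the median is made from the same genes, so the 13 flags are not separate events. 8 of the 13 were control 4 as the lowest control: Irf9 at 16.9 CPM (others 30.3 to 33.5), Zbp1 at 0.614 (6.16 to 7.40), Oas2 at 1.07 (2.87 to 3.31), Gbp7 at 6.60 (22.4 to 24.7), Igtp at 2.61 (30.4 to 46.5), Xaf1 at 2.42 (7.43 to 7.66) and Rtp4 at 2.46 (9.47 to 11.0), and the median level of the 36 genes at -1.48 log2 units (-0.11 to 0.16).

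In the other diets, Gbp2 was at 16.2 CPM in low-fat 2 (others 7.62 to 8.38), Irf1 at 16.8 in high-protein 4 (24.6 to 26.5), Ifit2 at 2.76 in high-protein 1 (3.84 to 4.06), Usp18 at 20.9 in high-protein 2 (27.4 to 28.9) and Gbp7 at 20.9 in low-protein 4 (22.96 to 23.3).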

How the results depend on the processing

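No setting called any of the 36 genes. Among all genes DESeq2 called 1 for high protein against control, 10 for low protein, 4 for low fat, 25 between the protein diets, 81 between high protein and low fat and 79 in the joint test. Between high protein and low fat, limma-voom called 1 and a fit to only those diets 16. Leaving out 1 library at a time gave 0 to 109 genes for low fat against control (109 without control 3), 0 to 2 between the protein diets, 0 to 1 between high protein and low fat and 0 to 1 in the joint test, the last 3 highest without high-protein 3; the cause was not tested.

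Of the 36, the number above control on high protein ranged from 14 to 34 with 1 library left out, was 19 in limma-voom and 14 without control 4 and low-fat 2; the median log2 fold change ranged from -0.0417 (without control 4) to 0.375 and was -0.0354 without both. On low protein the number above control ranged from 19 to 35 and was 22 without both. High protein was above low fat in 4 to 10 with 1 library left out and in 10 without both. The extremes of these ranges that moved the counts were control 4 for the first 2 diets and low-fat 2 for the last.

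Same-numbered libraries correlated at -0.20 to 0.30, with 8 of 24 pairs over 0.1. Libraries with different numbers were not compared in this way, so whether replicate numbers pair the samples cannot be told from these values. The fit with the replicate block called 0 genes in each comparison, and put 33, 35 and 35 of the 36 above control at medians of 0.24, 0.32 and 0.59. No other setting turned the direction of a median, but limma-voom brought it to 0.01 on high protein and 0.06 on low protein, where 27 of the 36 were above control. Oas3 and Mx1, at about 1 to 2 CPM, rest on the fewest counts.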
